A study of Rattus norvegicus with 6 samples.

Results

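The proteasome subunit genes were taken as all gene symbols of the count table that begin with Psma, Psmb, Psmc, Psmd, Psme, Psmf or Psmg, which gave 48 of 16383 genes. By role they were 8 genes of the alpha ring, 4 structural and 3 catalytic genes of the constitutive beta ring, 3 immune catalytic genes, 6 ATPases and 3 other subunits of the base, 8 subunits of the lid, 4 activators, 1 inhibitor, 7 assembly chaperones and Psmc3ip, which is named for a partner and is no subunit. All 48 had at least 1 UMI.

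Lungs of 3 Sprague Dawley (SD) rats given bleomycin (BLM) and of 3 control rats, aged 8 to 10 weeks, were compared. BLM-treated rats received a single dose of 5 mg/kg into the trachea, control rats the same volume of saline, and both were killed on day 28. Small pieces of lung perfused with buffer were digested, red blood cells were lysed, and mRNA of single cells was captured in microwells (BD Rhapsody), where each molecule receives a unique molecular identifier (UMI). BLM injures the alveolar epithelium and leaves scarring, so the model is one of chemical injury followed by fibrosis, read here at 1 time point and from small pieces of lung that need not represent the whole organ.

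The proteasome degrades proteins tagged with ubiquitin. Its core is a barrel of alpha and beta rings, in which Psmb5, Psmb6 and Psmb7 carry the cutting activities, and a regulatory particle of a base with ATPases and a lid binds, unfolds and feeds in the tagged protein. In leukocytes, and in other cells under interferon gamma, Psmb8, Psmb9 and Psmb10 are built in instead of Psmb5, Psmb6 and Psmb7 to form the immunoproteasome, and Psme1 and Psme2 form the PA28 activator, both known for making peptides for MHC class I.

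BLM-treated replicates 1 to 3 held 3657, 7481 and 3871 cells, and control replicates 3372, 2568 and 4598 cells. The median cell held 1253 to 1565 UMIs in BLM-treated lungs and 1066 to 1840 UMIs in control lungs. Of 25232 barcodes, 314 occurred in more than 1 library, with 11 to 35 shared by a pair of libraries. The cells were clustered without the proteasome genes and without the pathway lists used below, and clusters were named from marker lists, so each class is a class of cells like the one it is named for. The classes are written without "like" from here on. Of 20 named classes, 14 had at least 20 cells in every rat and were tested. A cluster of 239 cells, of which 188 came from BLM-treated replicate 2, received no name. UMIs were summed over the cells of a class in a rat, and levels are given per 1000000 of these summed UMIs (CPM). Replicates are rats, 3 in each group, and an SD is a spread over 3 rats. Where a level is given for a class as a whole, fewer cells of a type within it and less RNA per cell cannot be told apart.

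Promoters of the catalytic subunits are shown first, because the constitutive and the immune genes are known to be driven by different factors. Of 48 members, 44 had a promoter in RefSeq (rat GRCr8), taken as the 250 bases before the start. Shown are Psmb5, which carries the chymotrypsin-like activity, its immune counterpart Psmb8, Psmb10, the counterpart of Psmb7, and Psma6 of the alpha ring, which passed the test in 2 classes. Capitals mark a match to TGACNNNGC in Psmb5 (chr15:32047380-32047629, minus strand), to TTCNNNGAA in Psmb8 (chr20:4657032-4657281, minus strand), to a pair of GAAA runs with 2 bases between them in Psmb10 (chr19:50743293-50743542, minus strand) and to ACTTCCG in Psma6 (chr6:78514097-78514346, plus strand).
Psmb5: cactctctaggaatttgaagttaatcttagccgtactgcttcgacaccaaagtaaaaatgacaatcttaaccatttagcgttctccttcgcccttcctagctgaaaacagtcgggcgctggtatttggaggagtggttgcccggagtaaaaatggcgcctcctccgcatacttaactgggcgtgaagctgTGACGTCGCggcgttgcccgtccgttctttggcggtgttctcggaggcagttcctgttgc
Psmb8: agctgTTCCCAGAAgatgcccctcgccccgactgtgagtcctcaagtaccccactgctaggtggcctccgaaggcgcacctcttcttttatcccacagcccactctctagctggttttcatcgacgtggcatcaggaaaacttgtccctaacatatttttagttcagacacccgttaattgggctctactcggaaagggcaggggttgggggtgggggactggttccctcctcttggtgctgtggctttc
Psmb10: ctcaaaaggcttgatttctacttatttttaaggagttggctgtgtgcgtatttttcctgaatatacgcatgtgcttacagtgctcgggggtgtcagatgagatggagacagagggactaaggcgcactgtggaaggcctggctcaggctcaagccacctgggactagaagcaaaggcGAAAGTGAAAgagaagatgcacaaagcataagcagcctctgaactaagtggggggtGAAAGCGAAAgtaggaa
Psma6: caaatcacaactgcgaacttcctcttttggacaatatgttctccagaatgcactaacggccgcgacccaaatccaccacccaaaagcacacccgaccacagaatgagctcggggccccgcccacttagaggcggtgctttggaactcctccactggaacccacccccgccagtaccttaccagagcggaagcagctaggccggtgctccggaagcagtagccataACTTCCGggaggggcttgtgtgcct

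These letters were searched on both strands. TGACNNNGC, the core of the element bound by the proteasome factor Nfe2l1 and by Nfe2l2, was in 7 of 44 promoters (15.9%, against 10.1% of all 33469 promoters): Psma3, Psmb2, Psmb5, Psmb6, Psmd1, Psmd9 and Psme4. A pair of GAAA runs with 2 bases between them, a form of the interferon-stimulated response element, was in 5 (11.4%, against 3.41%): Psma4, Psmb10, Psmb3, Psmd7 and Psme2. TTCNNNGAA was in 4 (9.09%, against 7.67%): Psmb8, Psmc6, Psmd3 and Psmd7. CCAAT was in 21 (47.7%, against 34.0%) and ACTTCCG, a core of ETS factors, in 13 (29.5%, against 5.22%). In 1 promoter the matches of 2 of these motifs overlapped. A match is a stretch of letters and not a bound site.

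The immune subunits and PA28 genes stood at different levels in different classes of leukocytes. Psme1, of PA28, was at 1449, 1563 and 1021 CPM in plasmacytoid dendritic cells (pDC) of BLM-treated rats and at 1153, 1180 and 1014 CPM in those of control rats. The next class in BLM-treated lungs was the conventional dendritic cell with 874 ± 285 CPM (SD, n = 3), and in control lungs the NK cell with 835 ± 40.5 CPM (SD, n = 3). Alveolar macrophages lay far below, at 307 ± 17.5 CPM in BLM-treated and 303 ± 24.5 CPM in control lungs (SD, n = 3 each). Within pDC the rats of both groups overlapped.

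Psmb10 was also highest in pDC. There it was at 352, 382 and 380 CPM in BLM-treated rats and at 323, 310 and 301 CPM in control rats. NK cells followed, with 242 ± 65.9 CPM in BLM-treated and 296 ± 77.8 CPM in control lungs (SD, n = 3 each), so that the step from pDC to NK cells exceeded the spread in BLM-treated lungs and not in control lungs. Smooth muscle cells or pericytes had 50.9 ± 10.2 and 49.8 ± 32.5 CPM in BLM-treated and control lungs (SD, n = 3 each). The BLM-treated rats all lay above the control rats in pDC, by 0.26 on the log2 scale, which did not pass the test (SE 0.27, edgeR adjusted p = 0.861).

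Psmb9, the counterpart of Psmb6, was highest in conventional dendritic cells, which prime T cells, with 307 ± 64.0 CPM in BLM-treated and 330 ± 52.7 CPM in control lungs (SD, n = 3 each). The next classes, pDC in BLM-treated lungs (296 ± 112 CPM) and neutrophils in control lungs (269 ± 82.5 CPM), lay within the spread of these. Alveolar macrophages had 64.8 ± 10.3 and 63.3 ± 4.40 CPM of Psmb9 in BLM-treated and control lungs (SD, n = 3 each). Psmb8 was low in every class. Its highest means were 109 ± 53.2 CPM in conventional dendritic cells of BLM-treated rats and 86.5 ± 5.92 CPM in pDC of control rats (SD, n = 3 each), and alveolar macrophages had 24.1 ± 4.86 and 24.6 ± 1.25 CPM in BLM-treated and control lungs. The dendritic cells had 20 to 67 cells a rat, and these orders were a description, since the classes were made from the same cells.

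Psmb5, Psmb6 and Psmb7 had another order. Among the tested classes Psmb5 was highest in smooth muscle cells or pericytes of BLM-treated rats (330 ± 60.7 CPM) and in conventional dendritic cells of control rats (341 ± 68.2 CPM), and it was lowest in B cells of BLM-treated rats (132 ± 19.3 CPM) and in neutrophils of control rats (47.5 ± 22.2 CPM; SD, n = 3 each). Psmb6 ran highest in smooth muscle cells or pericytes of BLM-treated rats (183 ± 27.5 CPM) and in proliferating cells of control rats (157 ± 18.2 CPM). Psmb7 was highest in conventional dendritic cells of BLM-treated rats (241 ± 64.9 CPM) and in proliferating cells of control rats (272 ± 19.8 CPM).

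**Figure D1:**
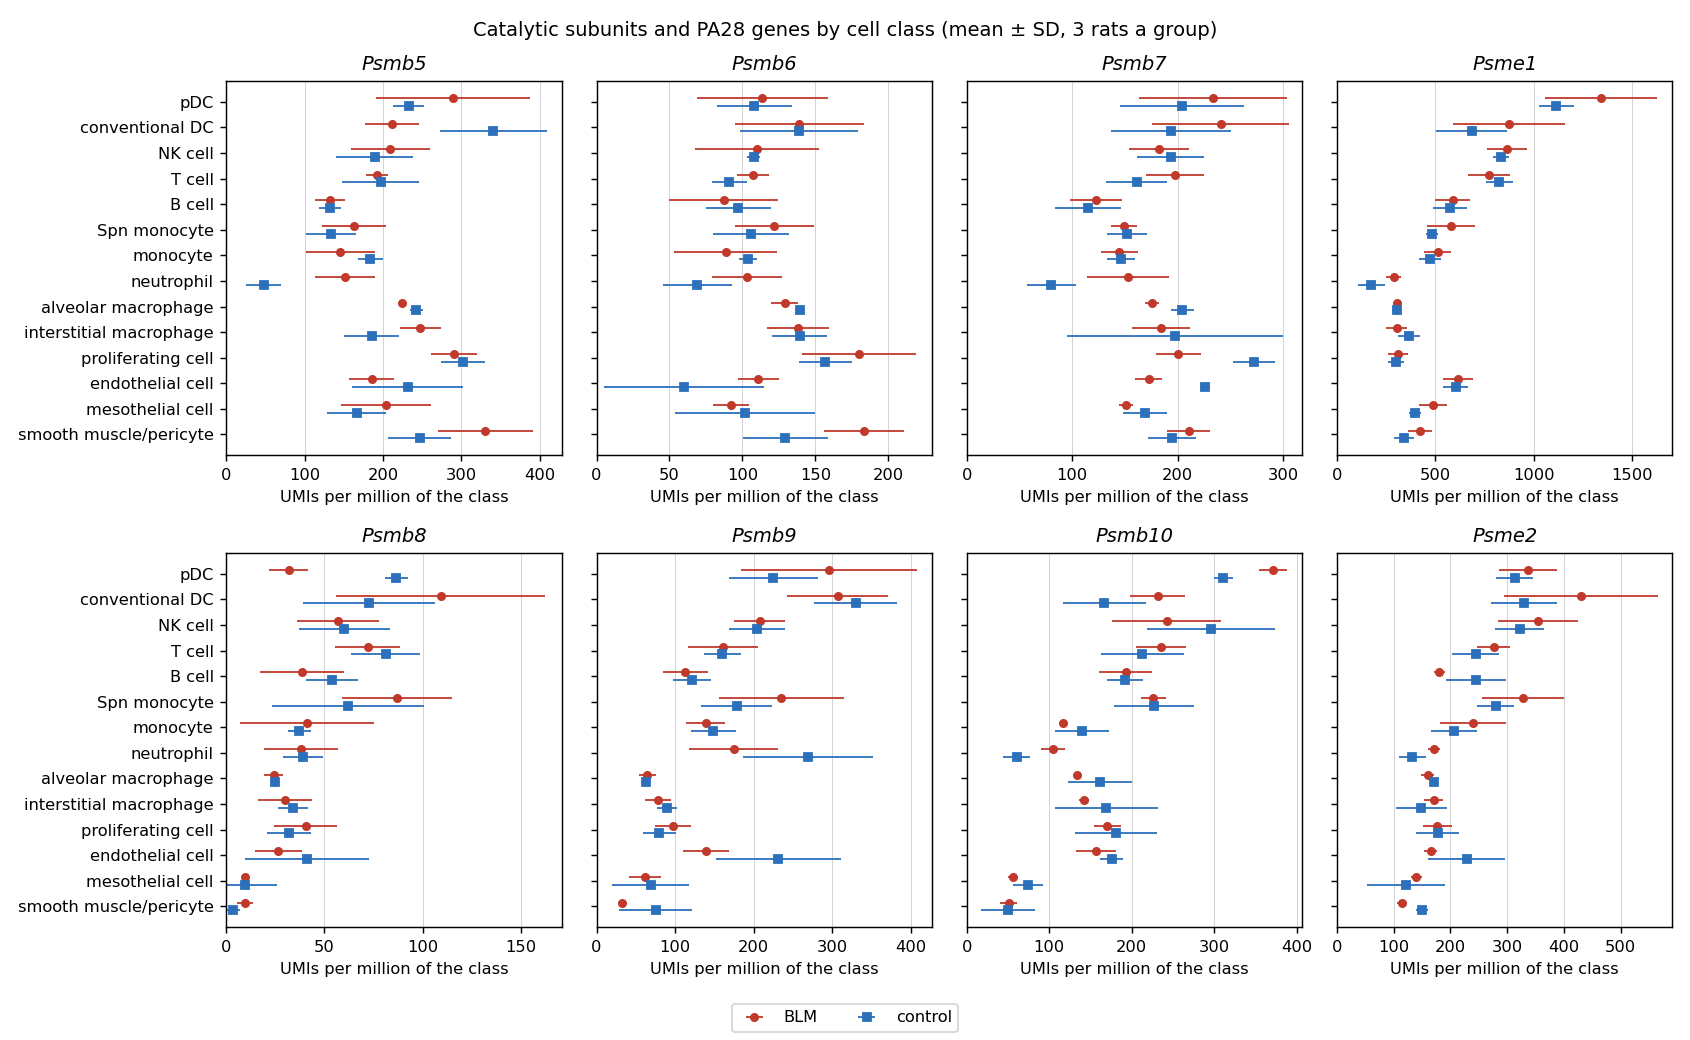
Levels of the catalytic subunit genes and of both PA28 genes in 14 cell classes, in CPM; points are means and bars the SD over 3 BLM-treated (red circles) or 3 control (blue squares) rats. Psme1 was highest in pDC (1344 ± 286 CPM in BLM-treated and 1115 ± 89.2 CPM in control lungs), and Psmb8 stayed below 110 CPM on average in every class.

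The exchange of constitutive for immune subunits was followed as the log2 ratio of Psmb8 to Psmb5, Psmb9 to Psmb6 and Psmb10 to Psmb7 in each rat. Capture differs between genes, so a ratio is read across rats and classes and not as the makeup of a particle. Over 14 classes, 42 ratios were compared between BLM-treated and control lungs by an exact permutation of the rats (two-sided), whose smallest possible p is 0.1 with 3 rats a group. The lowest adjusted p was 0.84. In 5 of the 42 the groups did not overlap, and in all 5 the ratio was lower in BLM-treated lungs. With no difference, groups of 3 rats lie fully apart at a rate of 0.1, and 5 of 42 was near that rate.

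Neutrophils held 2 of these 5. The ratio of Psmb9 to Psmb6 was 1.48, -0.11 and 0.78 in BLM-treated rats and 2.27, 2.01 and 1.5 in control rats, a difference of -1.21. That of Psmb8 to Psmb5 was -1.80, -3.37 and -1.03 in BLM-treated rats and -0.74, 1.10 and -0.89 in control rats, a difference of -1.89. Both sit on few molecules, with 10, 7 and 10 UMIs of Psmb8 in BLM-treated and 4, 7 and 10 in control rats, and the neutrophil class has a limit of its own given below.

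In endothelial cells (ECs) the ratio of Psmb9 to Psmb6 was 0.40, -0.22 and 0.75 in BLM-treated rats and 3.46, 2.03 and 0.75 in control rats, a difference of -1.77. The groups met at their edges, and control replicate 1 had 5 UMIs of Psmb9 and 0 of Psmb6 in its 27 ECs. In pDC the ratio of Psmb8 to Psmb5 was -2.66, -2.94 and -2.63 in BLM-treated rats and -1.39, -1.41 and -1.34 in control rats, a difference of -1.37 that rests on 1, 1 and 2 UMIs of Psmb8 in BLM-treated and 10, 11 and 8 in control rats. In smooth muscle cells or pericytes the ratio of Psmb9 to Psmb6 was -2.05, -2.87 and -2.39 in BLM-treated rats and 0.39, -1.27 and -1.83 in control rats, a difference of -1.54.

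**Figure D2:**
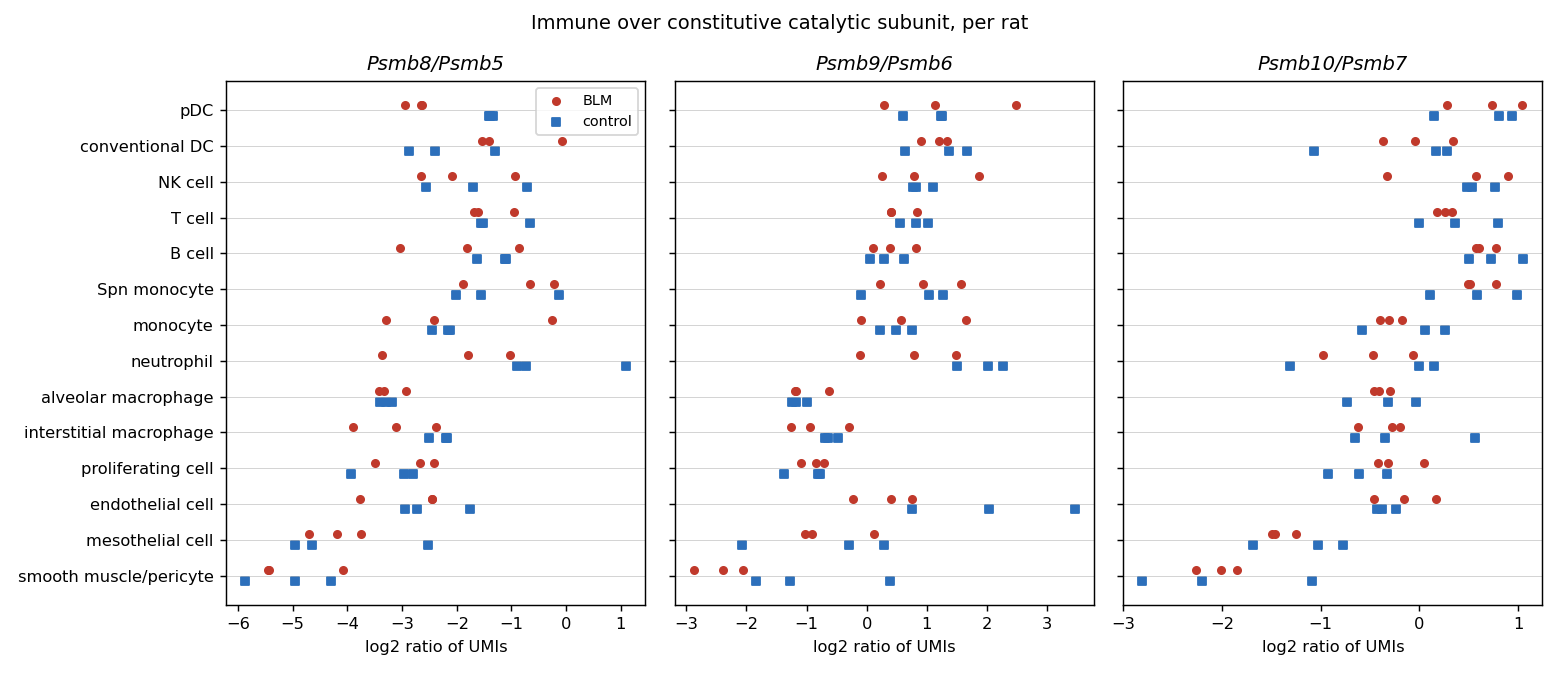
Log2 ratio of the UMIs of each immune catalytic subunit to those of its constitutive counterpart, with 0.5 added to both, in 14 classes; each point is 1 BLM-treated (red circles) or control (blue squares) rat. The groups do not overlap in 5 of 42 ratios, near the rate of 0.1 for groups of 3 rats with no difference. Among them is Psmb8/Psmb5 in pDC, at -2.94 to -2.63 in BLM-treated and -1.41 to -1.34 in control rats.

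The change of every member between BLM-treated and control lungs was then tested in each class. Over 14 classes, 544 tests of members passed the filter on low counts, and 12 of them passed the threshold, an adjusted p under 0.05 in edgeR's quasi-likelihood test over all genes of the class (2.21%), 9 higher and 3 lower in BLM-treated lungs. A member that passes the filter only through 1 group had to differ, so these are no share of all members. The testis-specific alpha subunit Psma8 passed the filter in no class, 22 members passed it in every class, and the base chaperones Psmd9 and Psmd10 and the chaperone Psmg3 in few.

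In 10 classes 0 members passed edgeR's test. At an unadjusted p under 0.05 there were 1 to 3 members in each of these classes, and DESeq2 called 0. The share of all genes past the threshold was 0.404% in B cells, 0.0418% in NK cells, 0.817% in Spn monocytes (the patrolling type), 1.32% in T cells, 0.0487% in conventional dendritic cells and 0.399% in monocytes. It was 0.516% in pDC, 2.09% in mesothelial cells, 6.06% in proliferating cells and 6.81% in ECs. In ECs, where 423 of 6213 genes differed, 43 members were tested and their median log2 fold change was 0.00, against 0.02 for all genes.

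No immune catalytic gene passed the test in any class. Psmb8, Psmb9 and Psmb10 together had 36 tests, of which 0 passed with edgeR, 2 had an unadjusted p under 0.05 and 0 passed with DESeq2. Psme1 and Psme2 had 28 tests, of which 0 passed, 0 had an unadjusted p under 0.05 and 0 passed with DESeq2. In ECs Psmb9 was at 141, 109 and 167 CPM in BLM-treated rats and at 190, 323 and 181 CPM in control rats, with a log2 fold change of -0.57 (SE 0.28, edgeR adjusted p = 0.275). All BLM-treated rats lay below the control rats, but the difference did not pass the test. This gene and class were chosen after the values were seen.

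**Figure D3:**
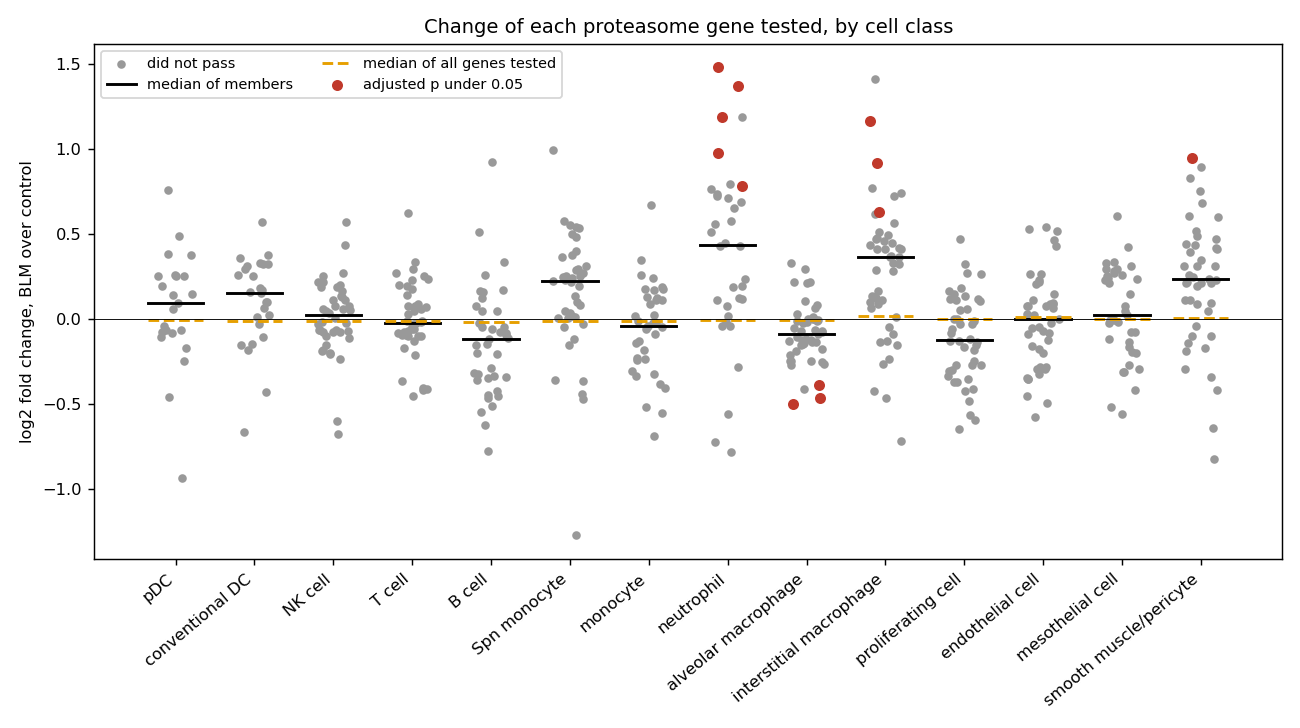
Log2 fold change of each proteasome gene tested, BLM-treated over control, in 14 classes; red points have an edgeR adjusted p under 0.05, black lines are the median of the members and dashed orange lines that of all genes tested. The 12 red points lie in 4 classes, and the members' median stands at 0.44 in neutrophils and 0.37 in interstitial macrophages.

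In interstitial macrophages, the macrophages outside the alveolar space, 3 of 45 members tested were higher in BLM-treated lungs and 0 were lower. Of all genes 18.1% differed, 9.44% higher and 8.62% lower. The members' median log2 fold change was 0.37, against 0.02 for all 6146 genes. By rats, 11 members lay wholly higher and 2 wholly lower in BLM-treated lungs, against 16.0% and 20.1% of all genes. Psmd14, the lid enzyme that cuts ubiquitin chains off the protein to be degraded, was at 160, 164 and 170 CPM in BLM-treated rats and at 62.4, 79.5 and 101 CPM in control rats. The groups stood well apart, at a log2 fold change of 1.16 (SE 0.27, edgeR adjusted p = 0.006).

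The other members that rose were of the alpha ring, which forms the gate of the core. Psma1 was at 124, 164 and 137 CPM in BLM-treated rats and at 97, 79.5 and 67.5 CPM in control rats, a log2 fold change of 0.92 (SE 0.27, edgeR adjusted p = 0.028). Psma6 was at 322, 379 and 370 CPM in BLM-treated rats and at 229, 252 and 278 CPM in control rats, a log2 fold change of 0.63 (SE 0.20, edgeR adjusted p = 0.041). Neither overlapped between groups, and the control values of Psma1 and Psmd14 came from 6 to 14 UMIs a rat.

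The class held different cells in each group. A cluster led by Spp1 and Apoe had 183, 696 and 128 cells of BLM-treated rats and 2, 2 and 8 of control rats, and a cluster led by the complement genes C1qa, C1qb and C1qc had 76, 271 and 164 against 64, 53 and 65. Within the cluster led by complement genes 0 of 32 members passed edgeR's test, and 1.6% of 2753 genes did, so few calls were made there for any genes. There Psmd14 was at 138, 123 and 164 CPM in BLM-treated rats and at 58.7, 82.8 and 96.3 CPM in control rats, which again did not overlap, at a log2 fold change of 0.87 (SE 0.33, edgeR adjusted p = 0.237). Psma6 there was at 276, 281 and 307 CPM against 220, 262 and 212 CPM, at 0.34 (edgeR adjusted p = 0.596).

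Markers of other cells moved with the group in interstitial macrophages. The 10 measured of 12 alveolar macrophage markers summed to 4186 to 4846 CPM in BLM-treated and 2030 to 2463 CPM in control rats, with none at 0, and the 9 measured of 10 Spn monocyte markers to 557 to 921 CPM and 1822 to 1987 CPM. Their part in the changes was not tested. Without control replicate 1, 0 members passed and Psmd14 had an adjusted p of 0.061. Without control replicate 2 or BLM-treated replicate 2, 1 member passed.

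In alveolar macrophages, which clear surfactant and inhaled particles, 0 of 47 members tested were higher and 3 were lower in BLM-treated lungs. Of 9256 genes 11.1% differed, 6.53% higher and 4.61% lower. The members' median log2 fold change was -0.08, against -0.0042 for all genes, and 9 members lay wholly lower and 4 wholly higher by rats, against 12.9% and 18.2% of all genes. Psmd2, a large scaffold of the base that docks shuttle proteins, was at 359, 346 and 338 CPM in BLM-treated rats and at 465, 455 and 528 CPM in control rats, a log2 fold change of -0.50 (SE 0.13, edgeR adjusted p = 0.034). No BLM-treated rat came near the lowest control rat.

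Psmc5, an ATPase of the base, was at 89.3, 81.8 and 92.9 CPM in BLM-treated rats and at 123, 132 and 105 CPM in control rats, a log2 fold change of -0.46 (SE 0.12, edgeR adjusted p = 0.029). Psmb3, a structural beta subunit, was at 88.5, 85.8 and 96.6 CPM in BLM-treated rats and at 123, 116 and 109 CPM in control rats, a log2 fold change of -0.39 (SE 0.11, edgeR adjusted p = 0.0497). These were shifts of well under 1 on the log2 scale, with tight groups that did not overlap over the class as a whole. Psmb5 and Psme1, chosen after their values were seen, did not pass here. Psmb5 was at 220, 227 and 226 CPM in BLM-treated rats and at 233, 248 and 246 CPM in control rats, a log2 fold change of -0.13 (SE 0.11, edgeR adjusted p = 0.501). Psme1 was at 325, 305 and 290 CPM in BLM-treated rats and at 320, 314 and 275 CPM in control rats. The groups overlapped for Psme1, and for Psmb5 they stood just apart.

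Alveolar macrophages fell into 3 clusters with different shares in the groups, of 451, 881 and 456 BLM-treated cells against 189, 21 and 287 control cells in the first, 49, 60 and 104 against 665, 222 and 1044 in the second, and 70, 127 and 60 against 396, 539 and 405 in the third. Psmd2 was lower within the first, at -0.48 (edgeR adjusted p = 0.043), and within the second, at -0.64 (edgeR adjusted p = 0.033), and stood at -0.34 (edgeR adjusted p = 0.661) in the third. Psmc5 and Psmb3 did not overlap between groups within the first cluster and overlapped within the second and the third. In the second, Psmc5 was at 121, 94.1 and 101 CPM in BLM-treated rats and at 118, 127 and 107 CPM in control rats. In the third, Psmc5 was at 122, 111 and 151 CPM in BLM-treated rats and at 149, 131 and 112 CPM in control rats. The calls over the whole class were near the threshold. For Psmd2 the adjusted p was 0.092, 0.138 and 0.132 without BLM-treated replicate 1, 2 and 3, and 0.097 and 0.093 without control replicate 1 and 3, and it passed without control replicate 2. The count of members past the threshold was 0 without any 1 of the BLM-treated rats or control replicate 1, 4 without control replicate 2 and 1 without control replicate 3. The 9 AT2 cell markers summed to 164 to 207 CPM in BLM-treated and 286 to 790 CPM in control rats in this class, with none at 0, and their part was not tested.

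Smooth muscle cells or pericytes had 1 member of 44 higher and 0 lower in BLM-treated lungs. Of 5813 genes 11.2% differed, 5.06% higher and 6.12% lower. The members' median log2 fold change was 0.23, against 0.01 for all genes, and 9 members lay wholly higher and 4 wholly lower by rats, against 13.7% and 15.5% of all genes. Psmb2, a structural beta subunit, was at 286, 267 and 272 CPM in BLM-treated rats and at 112, 146 and 157 CPM in control rats, so that the groups stood apart by more than 100 CPM at a log2 fold change of 0.95 (SE 0.24, edgeR adjusted p = 0.009). It kept its call without each rat in turn, with adjusted p from 0.014 to 0.049.

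The 2 clusters of this class differed. In the cluster with 211, 236 and 225 BLM-treated and 6, 25 and 56 control cells, Psmb2 was at 294, 295 and 280 CPM in BLM-treated rats and at 0, 158 and 174 CPM in control rats. In the other it was at 181, 169 and 216 CPM in BLM-treated rats and at 127, 138 and 146 CPM in control rats, a log2 fold change of 0.46 that did not pass (edgeR adjusted p = 0.642). The groups did not overlap in either. All 12 fibroblast markers were measured in the class, with none at 0, and summed to 2576 to 4187 CPM in BLM-treated and 22235 to 24557 CPM in control rats, and their part was not tested.

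**Figure D4:**
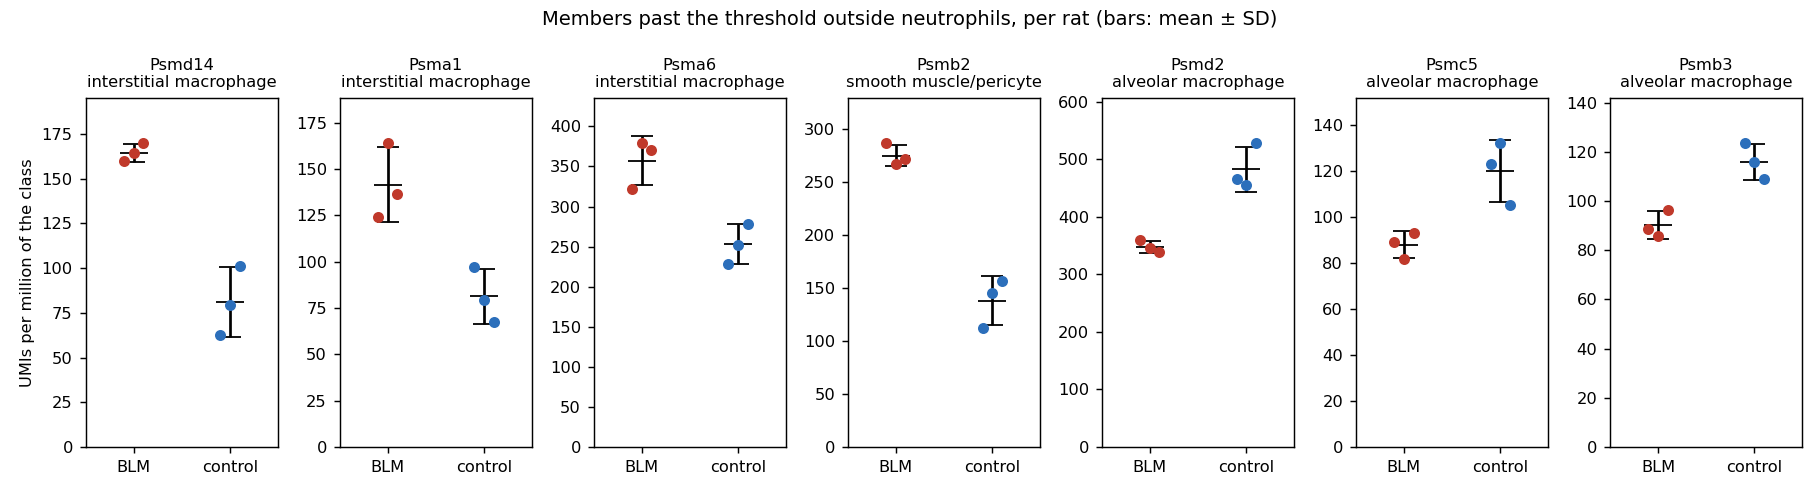
Levels of the 7 members past the threshold outside neutrophils, in CPM, for each of 3 BLM-treated (red) and 3 control (blue) rats, with mean and SD. Psmd14 lies at 160 to 170 CPM in BLM-treated and 62.4 to 101 CPM in control interstitial macrophages, and Psmd2 at 338 to 359 CPM and 455 to 528 CPM in alveolar macrophages.

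Neutrophils had the highest count, 5 members of 34 higher and 0 lower in BLM-treated lungs. Of 3239 genes 17.8% differed, 9.48% higher and 8.34% lower. By rats 16 members lay wholly higher and 0 wholly lower, against 23.5% and 13.1% of all genes, and the members' median log2 fold change was 0.44, against -0.01 for all genes. A minority of cells held a large share of the UMIs of the class. Cells with more than 3 times the median UMIs of the class in their rat numbered 24 of 168, 58 of 344 and 20 of 204 in BLM-treated rats and 6 of 167, 7 of 216 and 20 of 332 in control rats. They held 43.8% to 58.0% of the UMIs in BLM-treated and 14.2% to 28.8% in control rats. Without them 0 of 13 members passed edgeR's test, and 0.625% of 1761 genes did. Calls were lost among all genes too, so this count says nothing particular to the members.

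Macrophage transcripts were measured in these cells. Without the cells of high doublet score 7 of 23 members were higher and 0 lower, beside 311 higher and 173 lower of 2301 genes. Scrublet called too few cells to have worked, and whether the cells of high UMIs are doublets was not tested. In BLM-treated rats the macrophage markers summed to 11160 to 14764 CPM in them and the neutrophil markers to 2875 to 8599 CPM, while the other neutrophils had 4563 to 8088 CPM and 23724 to 36206 CPM. In control rats the cells of high UMIs had 4959 to 10450 CPM of macrophage markers and 10102 to 35513 CPM of neutrophil markers. The other neutrophils of control rats had 1317 to 1414 CPM of macrophage markers and 40807 to 59716 CPM of neutrophil markers. Over the whole class the alveolar macrophage list (10 of 12 measured, Marco at 0) stood at 3309 to 4123 CPM in BLM-treated and 998 to 1461 CPM in control rats. The interstitial macrophage list (12 of 12, Cd163 at 0) stood at 4335 to 7788 CPM and 838 to 2557 CPM.

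With every cell, Psmb5 was at 164, 181 and 108 CPM in BLM-treated rats and at 59.1, 21.9 and 61.5 CPM in control rats, a log2 fold change of 1.48 (SE 0.35, edgeR adjusted p = 0.011). Without the cells of high UMIs it was at 21.7, 27.5 and 46.0 CPM in BLM-treated rats and at 10.6, 17.0 and 27.3 CPM in control rats, from 1 to 6 UMIs a rat, and the groups overlapped. Psmd1, the other large scaffold of the base, was at 128, 162 and 160 CPM in BLM-treated rats and at 25.3, 72.9 and 55.0 CPM in control rats with every cell, a log2 fold change of 1.37 (SE 0.33, edgeR adjusted p = 0.012). Neither had counts enough to be tested without those cells.

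The remaining 3 were Psma4 and Psma6 of the alpha ring and the ATPase Psmc3. Psma4 was at 151, 153 and 114 CPM in BLM-treated rats and at 50.7, 51.0 and 61.5 CPM in control rats, a log2 fold change of 1.19 (SE 0.30, edgeR adjusted p = 0.015). Psma6 was at 279, 287 and 268 CPM in BLM-treated rats and at 152, 117 and 165 CPM in control rats, a log2 fold change of 0.78 (SE 0.24, edgeR adjusted p = 0.034). Psmc3 was at 110, 130 and 155 CPM in BLM-treated rats and at 42.2, 51.0 and 74.4 CPM in control rats, a log2 fold change of 0.98 (SE 0.32, edgeR adjusted p = 0.041). With every cell none of the 5 overlapped. Without the cells of high UMIs Psma6 alone of these 5 could be tested, at 86.9, 176 and 202 CPM in BLM-treated rats and 106, 110 and 105 CPM in control rats, a log2 fold change of 0.55 (SE 0.34, edgeR adjusted p = 0.5). Without BLM-treated replicate 2 the count with every cell was 0, without control replicate 1 it was 1, and without BLM-treated replicate 3 or control replicate 2 it was 3. Leaving out BLM-treated replicate 1 gave 3 members higher and 1 lower, beside 188 higher and 163 lower of 3323 genes. Leaving out control replicate 3 gave 4 higher and 1 lower, beside 288 higher and 290 lower of 3414 genes.

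The other catalytic and PA28 genes did not pass in neutrophils. Psmb9 was at 233, 120 and 170 CPM in BLM-treated rats and at 220, 364 and 223 CPM in control rats, a log2 fold change of -0.78 (SE 0.30, edgeR adjusted p = 0.082). Psmb10 was at 91.4, 120 and 103 CPM in BLM-treated rats and at 67.6, 72.9 and 42.1 CPM in control rats, at 0.76 (SE 0.34, edgeR adjusted p = 0.129). The groups overlapped for Psmb9 and not for Psmb10. Psmb6 was at 82.2, 130 and 98.1 CPM in BLM-treated rats and at 42.2, 87.4 and 77.7 CPM in control rats (edgeR adjusted p = 0.393). Psmb7 was at 183, 167 and 108 CPM against 67.6, 65.6 and 107 CPM (edgeR adjusted p = 0.111). Psme1 was at 311, 311 and 243 CPM against 135, 138 and 252 CPM (edgeR adjusted p = 0.194). In Psme1 the third control rat lay with the BLM-treated rats. Psme2 was at 174, 181 and 160 CPM in BLM-treated rats and at 110, 131 and 159 CPM in control rats (edgeR adjusted p = 0.639). Psmb8 had too few UMIs for a test, at 45.7, 16.5 and 51.6 CPM in BLM-treated and 33.8, 51.0 and 32.4 CPM in control rats.

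**Figure D5:**
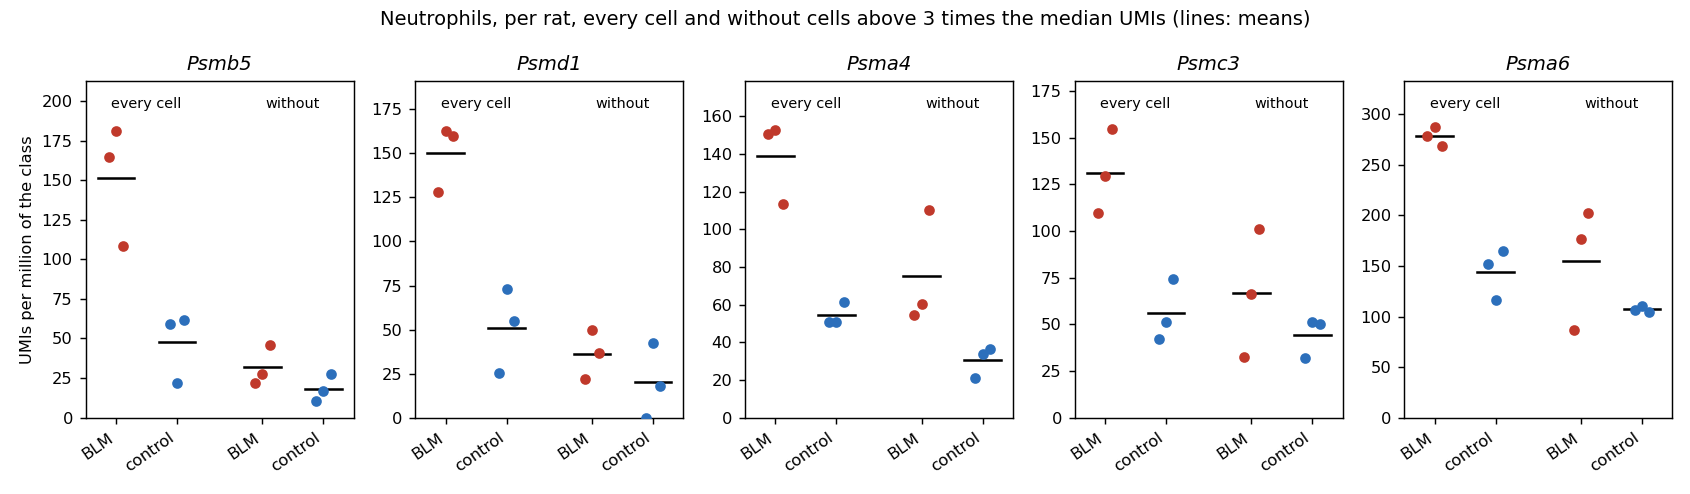
The 5 members past the threshold in neutrophils, in CPM, for each of 3 BLM-treated (red) and 3 control (blue) rats; lines are means, the left pair uses every cell and the right pair leaves out cells above 3 times the median UMIs of their rat. Psmb5 lies at 108 to 181 CPM in BLM-treated and 21.9 to 61.5 CPM in control rats in its left pair, and at 21.7 to 46.0 CPM and 10.6 to 27.3 CPM in its right pair, where the groups overlap.

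Summed over all cells of a rat, 1 of 47 members was lower in BLM-treated lungs and 0 were higher. Of 13346 genes 17.4% differed, 11.1% higher and 6.33% lower, and 4 members lay wholly higher and 7 wholly lower by rats, against 21.8% and 14.2% of all genes. It was again Psmd2, at 234, 219 and 210 CPM in BLM-treated rats and at 321, 286 and 399 CPM in control rats, without overlap, a log2 fold change of -0.65 (SE 0.18, edgeR adjusted p = 0.044). In such sums a shift in the makeup of the lung and a change within cells cannot be told apart, and ECs, for instance, were 384, 674 and 616 cells in BLM-treated and 27, 41 and 151 in control rats. The call was lost without any 1 of the rats other than control replicate 2, without which 3 members passed.

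Whether the change under BLM differed among the 14 classes was tested in 1 fit over all classes and rats. It differed for 9 of 44 members tested, while it did for 24.4% of 8566 genes. The 9 were Psma1, Psma7, Psmb1, Psmb5, Psmc6, Psmd14, Psmd8, the activator Psme4 and the chaperone Psmg2. Without the cells of high UMIs the change differed for 1 of 44 members and for 20.1% of 8196 genes. The member was Psmg2, whose neutrophil counts were then 1, 4 and 5 UMIs in BLM-treated rats and 0 in each control rat. For a single class against the mean of the others, 1 member stood apart in alveolar macrophages (3.28% of all genes), 4 in interstitial macrophages (11.4%), 6 in neutrophils (6.05%) and 1 in smooth muscle cells or pericytes (2.84%). Psmd14 in interstitial macrophages stood apart by 1.29 on the log2 scale, and by 1.25 (SE 0.31, edgeR adjusted p = 0.003) without those cells. Psmb2 in smooth muscle cells or pericytes stood apart by 0.86, and by 0.90 (SE 0.25, edgeR adjusted p = 0.030) without them.

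Genes around the proteasome were read from lists. Nfe2l2, a stress factor that drives proteasome and antioxidant genes, passed the test as higher in BLM-treated lungs in 4 classes. In ECs it was at 1180, 1518 and 1256 CPM in BLM-treated rats and at 796, 616 and 579 CPM in control rats, a log2 fold change of 1.17 (SE 0.21, edgeR adjusted p = 0.003). In alveolar macrophages it was at 560, 598 and 430 CPM in BLM-treated rats and at 305, 209 and 263 CPM in control rats, a log2 fold change of 1.0 (edgeR adjusted p = 0.008). The groups lay apart in both. Nfe2l2 also rose in proliferating cells by 0.93 and in pDC by 1.42 on the log2 scale (edgeR adjusted p = 0.0006 and 0.049), and stood at -0.55 in interstitial macrophages (edgeR adjusted p = 0.088). The proliferating cells held macrophage markers at 9633 to 12344 CPM in BLM-treated and 5658 to 6687 CPM in control rats. Their part in changes of any gene of that class was not tested.

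Of the other genes of proteasome transcription, Ddi2, the protease that activates Nfe2l1, rose in interstitial macrophages by 1.23 (edgeR adjusted p = 0.037). The control rats had only 6, 3 and 2 UMIs of it there. It was 1 of 7 transcription genes tested in that class, beside 18.1% of all genes. Nfe2l1 itself was tested in 5 classes and passed in none, with 0.426 as its lowest adjusted p. Ubb, which encodes ubiquitin, passed the test as higher in the same classes as Nfe2l2 except pDC. It was at 6087, 5331 and 5470 CPM in ECs of BLM-treated rats and at 3033, 2554 and 3131 CPM in those of control rats, a log2 fold change of 1.09 (SE 0.20, edgeR adjusted p = 0.003). It rose by 0.81 in alveolar macrophages (edgeR adjusted p = 0.007) and by 0.80 in proliferating cells (edgeR adjusted p = 0.0008). By rats Ubb also lay wholly higher, without passing, in B cells, Spn monocytes, T cells, conventional dendritic cells, monocytes, pDC and smooth muscle cells or pericytes. Of all genes 13.7% lay wholly higher in smooth muscle cells or pericytes, and that share is not given here for the other classes. These classes come from the same rats. Ubb lay wholly lower in interstitial macrophages, at -0.21 (edgeR adjusted p = 0.527), as did 20.1% of all genes there. In ECs Nfe2l2 and Ubb were 1 of 7 transcription genes and 1 of 4 ubiquitin genes past the threshold, beside 6.81% of all genes.

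Partners of the proteasome and genes of the unfoldase p97 had 1 call each over the 14 classes. Of the p97 list, Nsfl1c, a cofactor of p97, fell in alveolar macrophages by 0.66 on the log2 scale (edgeR adjusted p = 0.007), 1 of 9 tested there, beside 11.1% of all genes. Of the partner list, Sem1, a small lid subunit without a Psm symbol, fell in proliferating cells by 0.72 (edgeR adjusted p = 0.045), 1 of 10 tested there, beside 6.06% of all genes. The groups overlapped, with the BLM-treated rats at 271, 292 and 235 CPM and the control rats at 484, 233 and 544 CPM. Adrm1, the ubiquitin receptor, passed in none of 8 classes, with 0.427 as its lowest adjusted p. The assembly factor Pomp was counted at or below 1.7 CPM in every class and rat, and whether these counts reflect its expression was not tested.

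Genes of the class I list passed the test in 4 classes, 4 of 14 in interstitial macrophages, 3 of 11 in neutrophils, 1 of 16 in alveolar macrophages and 1 of 11 in smooth muscle cells or pericytes, beside 18.1%, 17.8%, 11.1% and 11.2% of all genes. B2m, the light chain of MHC class I, passed in none of 14 classes, with 0.132 as its lowest adjusted p. In interstitial macrophages the class I heavy chain genes RT1.A1, RT1.A2 and RT1.CE7 fell, with log2 fold changes of -0.97, -0.89 and -1.38 (edgeR adjusted p = 0.029, 0.041 and 0.008), and RT1.M3.1 rose by 2.78 (edgeR adjusted p = 0.011), at 35.5, 34.5 and 46.3 CPM in BLM-treated rats and 6.93, 0 and 8.43 CPM in control rats. These heavy chain genes resemble each other, and reads may be split among them. In alveolar macrophages RT1.CE5 rose by 0.61 (edgeR adjusted p = 0.010), and in smooth muscle cells or pericytes RT1.M3.1 fell by 1.64 (edgeR adjusted p = 0.021).

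In neutrophils Tap1, which pumps proteasome peptides into the endoplasmic reticulum, was at 63.9, 33.0 and 46.5 CPM in BLM-treated rats and at 101, 182 and 61.5 CPM in control rats, so that 1 BLM-treated rat lay above the lowest control rat, a log2 fold change of -1.36 (SE 0.44, edgeR adjusted p = 0.041). The chaperones Canx and Pdia3 rose there by 1.36 and 1.0 (edgeR adjusted p = 0.003 and 0.021). Tap1 was tested in 7 classes and passed in neutrophils only. The limit on the neutrophil class holds for these genes too.

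Interferon genes gave mixed directions. Cxcl10, a chemokine that interferon induces, rose in alveolar macrophages by 1.45 and in proliferating cells by 2.73 and stood lower in interstitial macrophages at -1.70 on the log2 scale (edgeR adjusted p = 0.043, 2.6e-05 and 0.002). In interstitial macrophages Ifi47 and Ciita also fell, at -0.82 and -2.13 (edgeR adjusted p = 0.044 and 0.026), so that 3 of 17 interferon genes fell and 0 rose, beside 8.62% of all genes lower and 18.1% different there. In ECs Ifit3 and Socs1 rose by 2.91 and 1.80 and Gbp5 fell by 1.19 (edgeR adjusted p = 0.017, 0.036 and 0.042), with control replicate 1 at 0 CPM for Ifit3 and control replicates 1 and 2 at 0 CPM for Socs1. In alveolar macrophages Oasl rose by 1.67 and Gbp2 fell by 0.51 (edgeR adjusted p = 0.006 and 0.038), Mx1 rose in Spn monocytes by 1.27 (edgeR adjusted p = 0.039), and Oas1a fell in neutrophils by 1.53 (edgeR adjusted p = 0.010).

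Ciliated cells had 24, 129 and 25 cells in BLM-treated rats and 7, 7 and 2 in control rats and were not tested. Among the classes with at least 20 cells in each of the 3 BLM-treated rats they had the highest mean of 13 members, and for 6 of these the rats did not overlap with those of the next class. The share of all genes highest in ciliated cells was not counted, so these numbers show no trait particular to the members. Described here are 3 of the 6, chosen after their values were seen. Psmf1, an inhibitor of the proteasome, was at 219, 240 and 266 CPM there, and the next class, pDC, at 102 ± 18.7 CPM (SD, n = 3). Psmc3ip, a factor of meiotic recombination, was at 219, 246 and 303 CPM, and the next class, proliferating cells, at 54.0 ± 10.8 CPM (SD, n = 3). Psmb5 was at 411, 567 and 481 CPM. No statement on BLM against control can be made for ciliated cells.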

How the data were processed

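The table that the authors deposited holds raw UMI counts, cells in rows and genes in columns. The submitters' processing notes list mm9, a mouse build, although the gene symbols are those of the rat. Neither the aligner nor the cell filter is given in the sources used here. The header lacks a name for the column of cells, so a gene's values lie 1 field right of its name, which was checked on the most abundant genes. Cell names end in F or N with a digit from 1 to 3, which no label explains. They were read as BLM-treated and control replicates because the 15009 F and 10538 N cells equal the numbers that the study gives for its groups, and the digit was taken as the replicate number.

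After scaling each cell to 10000 UMIs and taking logs, 2000 variable genes, without the members and the lists, gave 30 principal components, 15 neighbours and 27 Leiden clusters at resolution 1 (scanpy 1.11.5, leidenalg 0.10.2). Scrublet called 99 cells (0.3875%), too few to have worked, so all cells were kept, and 1278 cells of high score were left out in an alternative. UMIs were summed per rat and class and tested with edgeR 4.0.16 (filterByExpr, TMM, quasi-likelihood test, Benjamini-Hochberg adjustment over all genes tested in a class, threshold 0.05; R 4.3.3). The submitters label each sample as the lung of a rat, and p-values measure the spread between these rats. The edgeR fit was tested on simulated counts with known changes.

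Alternatives were RLE scaling, DESeq2 1.42.0, no filter, each rat left out, a replicate block, cells of at least 500 UMIs, high doublet scores removed, resolution 2 and the listed genes kept in the clustering. Leaving out cells above 3 times the median UMIs of their class and tests within single clusters were added after the data were seen. Named are the catalytic and PA28 genes where 1 of them passed, up to 3 members up and 3 down per class by size of change, the same for each list, and Tap1, B2m, Nfe2l1, Nfe2l2, Pomp and Adrm1. Tap2 and Irf1 were not analysed here. Members, lists and classes were chosen with earlier results of these data known. Near-identical copies and pseudogenes of a member may share its reads.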

Additional observations from a re-analysis of the deposited data

Results flagged for a closer look

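In the fit over all 14 classes the change under BLM differed between classes for 9 members, by edgeR adjusted p-values of 0.00020 for Psmb5, 0.0029 for Psmd14, 0.0074 for Psmb1, 0.015 for Psme4, 0.018 for Psmg2, 0.025 for Psmc6, 0.029 for Psma1, 0.038 for Psmd8 and 0.044 for Psma7. These were 20.5% of 44 members, beside 24.4% of 8566 genes, so the count is not particular to the members. Without the cells of high UMIs only Psmg2 differed, beside 20.1% of 8196 genes.

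Set against the mean of the other classes, the log2 change under BLM stood apart in interstitial macrophages for Psmd14 by 1.29, Psma1 by 0.995, Psmd13, a lid subunit, by 0.99 and Psmd2 by 0.80. In neutrophils it stood apart for Psmg2 by 1.97, Psmb5 by 1.36, Psmd1 by 1.17, Psma4 by 1.07, Psme4 by -0.75 and Psmb9 by -0.81. Psmg2, an assembly chaperone, had 13, 19 and 12 UMIs in neutrophils of BLM-treated rats and 2, 0 and 5 in those of control rats. In smooth muscle cells or pericytes Psmb2 stood apart by 0.86 and in alveolar macrophages Psmb3 by -0.61. Of all genes, 11.4% stood apart in interstitial macrophages, 6.05% in neutrophils, 2.84% in smooth muscle cells or pericytes and 3.28% in alveolar macrophages. Without cells above 3 times the median UMIs of their class, an alternative added after seeing the data, Psmd14, Psmb2 and Psmg2 still stood apart in those classes and the others did not.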

How the results depend on the processing

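In the 10 classes with 0 members past the threshold, 0 passed under every alternative run. In alveolar macrophages, with 3 members past it, 1 passed with DESeq2, 0 with no filter, 1 without cells above 3 times the median UMIs, 1 within the first and within the second cluster and 0 within the third, where Psmb3 turned to 0.12 (edgeR adjusted p = 0.919), and 0 to 4 passed with 1 rat left out. In interstitial macrophages, with 3, 0 passed within the cluster led by complement genes and 0 to 3 with 1 rat left out. In neutrophils, with 5, 2 passed with DESeq2, 0 without the cells of high UMIs, 7 without cells of high doublet score, 7 at resolution 2, 6 with cells of at least 500 UMIs, with RLE scaling or with the listed genes kept, and 0 to 5 with 1 rat left out. Of the members that passed in neutrophils without BLM-treated replicate 1 or without control replicate 3, 1 was lower in each case. Of all genes in neutrophils, 311 of 2301 were higher without cells of high doublet score and 341 of 3396 at resolution 2. In smooth muscle cells or pericytes, with 1, 2 passed without cells of high doublet score, 0 within the testable cluster and 1 with any rat left out. Over all cells, with 1, 0 passed with no filter and 0 to 3 with 1 rat left out. The count of members whose change differed between classes, 9, was 4 with RLE scaling and 1 without the cells of high UMIs. The cause of these shifts was not tested, and fits with rats or cells left out also rest on fewer rats or cells. With the replicate number as a block, 0 members passed in alveolar macrophages, 1 in interstitial macrophages, 2 in neutrophils and 0 over all cells. Samples of the same number deviated from their group means with correlations of -0.15 to 0.10, so the numbers were not taken to pair rats. The ratios moved by less than the spread between rats. Low UMI counts limit Psmb8, the dendritic cells and the control ECs, among others.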
